A study of Mus musculus with 354 samples.

Results

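The genes described here encode the subunits of the mitochondrial respiratory chain and ATP synthase, with the assembly factors and tissue isoforms that share their symbols. They were chosen by symbol alone: Nduf for complex I, Sdha to Sdhd for complex II, Uqcr and Cyc1 for complex III, Cox4 to Cox8 for complex IV and Atp5 for complex V. The rule found 129 probe sets, which stand for 82 of the 16670 genes with a probe set of a single symbol, and the probe set of highest mean was used for each gene. All 82 symbols matched RefSeq. A gene was tested when its value exceeded the array median in at least 4 arrays, which 77 of the 82 did, among 14125 genes tested. The 77 comprised 64 subunits, with 31 in complex I (6 core and 25 accessory), 4 in complex II, 7 in complex III, 9 in complex IV and 13 in complex V. The others were 7 complex I assembly factors, 5 tissue isoforms of complex IV and Ndufa4l2, a paralogue of Ndufa4. Ndufa4 itself, despite its symbol, was counted in complex IV as a subunit of cytochrome c oxidase.

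The chain sits in the inner mitochondrial membrane, where complexes I and II pass electrons from NADH and succinate to ubiquinone, complex III passes them to cytochrome c and complex IV to oxygen. Complexes I, III and IV pump protons, and complex V uses the gradient to make ATP. Hepatocytes are rich in mitochondria, and the nuclear genes listed here supply all of the chain except the few subunits that mitochondrial DNA encodes. Nuclear respiratory factor NRF1, ETS factors, YY1 and the estrogen-related receptors are known regulators of many of these genes.

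The study put liver RNA of 354 male mice on one-colour arrays, with an array for each mouse. The mice belonged to 45 Collaborative Cross strains, inbred lines derived from crosses of several founders. Of these mice, 175 were labelled tolvaptan and 179 Control, the vehicle group, and livers were taken 24 h into treatment. Tolvaptan is a vasopressin V2 receptor antagonist. All animals were 8 to 10 weeks old at dosing, had about 7 days of acclimation and fasted for about 18 h before necropsy, and the tissue came from the median lobe, so each array averages all its cell types. Values are log2 RMA intensities, and no probe set's level is set against another's.

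Of the 90 groups of 1 strain and 1 treatment, 85 had 4 arrays, 4 had 3 and 1 had 2. Medians over all probe sets lay between 2.81 and 3.02 in every array, and all 8 hepatocyte markers, among them Alb and Cps1, lay above that level. The arrays came in 6 scans. Over the 500 probe sets that differed most between strains, 34 arrays correlated with the profile of their labelled strain at no more than 0.32, and the other 320 at 0.64 or higher. These 34 arrays, 27 vehicle and 7 tolvaptan in 19 strains, with 22 of them in scan 2, are called off-strain arrays here, and results that rest on them are given with and without them. The labels name no shared cage or litter, so the tests measure the spread between single mice of a strain.

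Promoter windows of 300 bases, 250 before and 50 after the RefSeq start in build GRCm38.p6, existed for 66 of the 82 genes and 53 of the 64 subunits. Both strands were searched for GCGCATGC (NRF1), GCGCAGGC (an NRF1 variant, added after the sequences had been read), CCGGAAGT (ETS), AAGATGGC (YY1) and TCAAGGTC (estrogen-related receptors). At least 1 of these letter strings was present in 49.1% of the 53 subunits, 26 genes, against 23.2% of the 11299 tested genes with a window. The YY1 string was held by 18.9% of the subunits and 4.56% of all genes, and the NRF1 string by 15.1% and 5.12%. The variant was held by 11.3% and 8.52%, the ETS string by 7.55% and 7.43%, and the receptor string by 3.77% and 1.05%. A match describes the letters only. The 4 windows printed below are a choice among those read, with matches in capitals. Cox6a1 was drawn from the subunits with the most matches. The window of Cox6b1, which also followed the other subunits closely, held none of the strings and is not printed. All 4 genes lie on the minus strand and the sequences run 5′ to 3′. Cox6a1, the liver form of a complex IV subunit, had the narrowest strain range on the probe set used. Ndufb10, a complex I subunit, followed the other subunits closely. Sdha, the catalytic flavoprotein of complex II, had the widest strain range of the subunits. Cox6b2, the testis form of a complex IV subunit, differed most between strains.
Cox6a1 (chr5:115348909-115349208): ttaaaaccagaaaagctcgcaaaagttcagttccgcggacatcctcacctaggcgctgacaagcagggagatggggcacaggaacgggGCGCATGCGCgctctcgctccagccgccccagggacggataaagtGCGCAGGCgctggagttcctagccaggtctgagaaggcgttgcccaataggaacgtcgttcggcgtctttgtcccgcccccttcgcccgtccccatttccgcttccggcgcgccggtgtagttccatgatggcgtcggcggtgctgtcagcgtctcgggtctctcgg
Ndufb10 (chr17:24724374-24724673): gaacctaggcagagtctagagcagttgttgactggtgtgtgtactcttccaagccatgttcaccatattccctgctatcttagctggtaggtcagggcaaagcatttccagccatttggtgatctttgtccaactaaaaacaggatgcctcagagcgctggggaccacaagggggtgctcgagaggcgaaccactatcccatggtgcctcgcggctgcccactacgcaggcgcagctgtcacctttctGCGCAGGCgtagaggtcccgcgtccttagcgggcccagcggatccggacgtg
Sdha (chr13:74350191-74350490): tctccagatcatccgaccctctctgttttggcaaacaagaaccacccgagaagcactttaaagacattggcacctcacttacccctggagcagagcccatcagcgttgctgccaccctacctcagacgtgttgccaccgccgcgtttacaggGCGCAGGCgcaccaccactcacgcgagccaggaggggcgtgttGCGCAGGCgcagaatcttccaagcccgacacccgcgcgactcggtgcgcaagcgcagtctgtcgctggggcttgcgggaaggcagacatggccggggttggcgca
Cox6b2 (chr7:4753045-4753344): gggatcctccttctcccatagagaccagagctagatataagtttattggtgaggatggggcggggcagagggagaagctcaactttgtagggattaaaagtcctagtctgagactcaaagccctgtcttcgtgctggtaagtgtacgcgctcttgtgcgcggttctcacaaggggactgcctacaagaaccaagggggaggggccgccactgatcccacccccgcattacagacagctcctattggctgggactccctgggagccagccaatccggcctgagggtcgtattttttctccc
The Cox6a1 window held 3 matches, of which the pair in the first run of capitals overlap on opposite strands. Ndufb10 held 1 match and Sdha 2, all to the NRF1 variant, and none of the 5 strings was found in the Cox6b2 window.

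Whether tolvaptan changed the expression of the chain was asked first as a mean over the 45 strains. None of the 77 genes passed (limma, Benjamini-Hochberg adjusted p of 0.05 over 14125 genes), where 0.496% of all genes did. At an unadjusted p of 0.05 there were 13, or 16.9%, against 9.56% of all genes, and 12 of the 13 were lower with tolvaptan. Among bright genes that share was 18.6% (1174 genes with a mean of at least 9) and 24.3% (292 genes with a mean of at least 11). Both lay above the 16.9% of the 77 genes, whereas the 20.3% of the 64 subunits lay between them. The estimates leaned to one side by a small amount. Among the 64 subunits, 53 (82.8%) were lower with tolvaptan and the median difference was −0.018 on the log2 scale. Over all genes 49.7% were lower, with a median of 0.0003. Subunits vary together between mice, as described further on, so these 53 are not 53 separate observations. In bulk liver, fewer cells of a type and less RNA per cell cannot be told apart.

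By complex, the count with a lower estimate was 24 of 31 in complex I (median −0.019), 4 of 4 in complex II (−0.022) and 5 of 7 in complex III (−0.018). It was 8 of 9 in complex IV (−0.014) and 12 of 13 in complex V (−0.017). The assembly factors and tissue isoforms lay on the other side, with 3 of 7 lower (median 0.032) and 1 of 5 lower (0.029). No complex held a gene past the threshold.

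**Figure D1:**
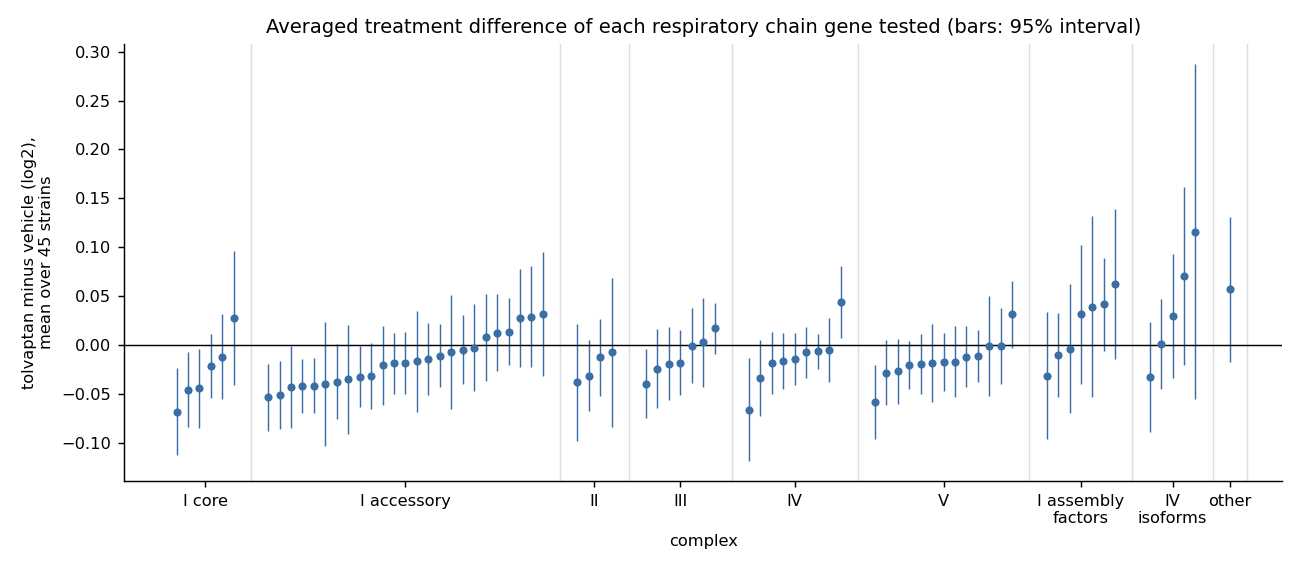
Averaged tolvaptan minus vehicle difference (log2 units, y axis) of each of the 77 genes tested, grouped on the x axis by complex, with 95% intervals from the limma fit. Most subunits sit just below 0, none beyond −0.068 or 0.044, and Cox6b2 among the complex IV isoforms has the widest interval.

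The lowest p belonged to Ndufv3, an accessory subunit near the NADH-oxidising tip of complex I. In vehicle mice it ranged from 10.2 to 12.0 with a median of 10.9, and in tolvaptan mice from 10.2 to 11.8 with a median of 10.9. The treatments overlapped almost fully. Its averaged difference was −0.054 ± 0.017 (SE, 95% interval −0.088 to −0.019), with a lower mean in 31 of 45 strains and an adjusted p of 0.151. Ndufs8, a core subunit that carries iron-sulfur clusters, had the largest difference of any subunit, −0.068 ± 0.023 (SE, adjusted p = 0.172), and was lower in 27 strains. Its vehicle values ran from 10.3 to 12.0 (median 11.2) and its tolvaptan values from 9.89 to 12.1 (median 11.2). The accessory subunits Ndufa3 (−0.042, adjusted p = 0.175), Ndufb8 (−0.051, 0.212) and Ndufb9 (−0.041, 0.217) were lower by similar amounts in 28, 31 and 31 strains.

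In complex II the lowest p was that of Sdhb, the iron-sulfur subunit, at −0.031 ± 0.018 (SE, adjusted p = 0.617). Sdha differed by −0.038 ± 0.030 (SE, adjusted p = 0.760), with an interval from −0.098 to 0.022. In complex III, Uqcr11, a small subunit, was lower by estimate (−0.040, adjusted p = 0.442), while the core protein Uqcrc2 lay at 0.003 with an interval from −0.043 to 0.048. In complex IV, Cox5b, which binds zinc on the matrix side, was at −0.066 ± 0.027 (SE, adjusted p = 0.346). Cox7a2, the liver form of its subunit, was the 1 gene of the 13 that was higher, by 0.044 ± 0.019 (SE, adjusted p = 0.397) and in 29 strains. Cox4i1, a regulatory subunit, was at −0.014 and Ndufs1, the largest core subunit of complex I, at 0.028. In complex V, Atp5k, a small membrane subunit, was at −0.058 ± 0.019 (SE, adjusted p = 0.163) and lower in 28 strains, and the catalytic beta subunit Atp5b was at −0.020 with an interval from −0.045 to 0.004.

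This lean was present in the later scans and not in scan 1. In scan 1 alone, which held 1 mouse of each strain and treatment, the median over the 77 genes was 0.012, close to 0.011 over all genes. There 25 of 77 were lower, beside 5834 of all 14125 genes. In the later scans the median was −0.023, against −0.0028 over all genes, and 58 of 77 were lower, beside 7443 of 14125. Atp5k, Ndufa3, Ndufb8, Ndufs8 and Ndufv3 passed in those scans (6.49%, against 1.12% of all genes), with Ndufs8 at −0.097 (limma adjusted p = 0.021). Scan 2 held most off-strain arrays. It also held most mice of its strains, so a fit without it left most of those strains with 1 mouse per treatment, from scan 1. The median was then 0.0029, against 0.0076 over all genes. Without only the off-strain arrays it was −0.017, and on the 26 strains that had none it was −0.020, against −0.014 in the main fit.

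Treatment differences were next compared between strains. None of the 77 genes passed the interaction test, where 0.0212% of all genes did. At an unadjusted p of 0.05 there were 3, or 3.90%, below the 6.78% of all genes. The lowest adjusted p-values were those of Cox6b2 (0.449), Ndufa10 (0.569), Cox8c (0.733) and Cox7a1 (0.784). Without the off-strain arrays Cox6b2 passed, at an adjusted p of 0.0031, beside 26 of all genes tested. With arrays weighted by quality 10 genes passed, among them Cox6b2, Ndufa10 and Ndufaf3, but these are 13.0% of the 77, below the 23.5% of all genes that passed in that fit.

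Tests within single strains called 5 pairs of a gene and a strain, where the background over 45 strains was 0.281% of 635625 tests. AU8049 gave 2 calls, or 2.60% of the 77 genes, below the 5.40% of all genes called in that strain. Both were for assembly factors that act together early in building complex I. Ndufaf4 in vehicle mice of AU8049 was 5.67, 6.03, 6.28 and 6.54, and in tolvaptan mice 5.94, 6.28, 7.61 and 7.66. It rose by 0.74 ± 0.24 (SE, limma adjusted p = 0.043), with 2 tolvaptan mice above all vehicle mice and 2 within their range. Ndufaf3 in the same vehicle mice was 7.52, 7.58, 7.64 and 7.76, against 6.20, 6.50, 7.48 and 7.61 with tolvaptan. It fell by 0.68 on the log2 scale (SE 0.22, limma adjusted p = 0.046), and again 2 tolvaptan mice stood apart while 2 did not. Neither call held without replicate 1 or without replicate 2 (Ndufaf4 0.63 and 0.33, Ndufaf3 −0.54 and −0.38), and both just missed the threshold without the scan term or the filter on dim genes (limma adjusted p from 0.0503 to 0.0539). Ndufa5, an accessory subunit, and Sdhd, a membrane anchor of complex II, were higher in AU8049 by estimate (0.58 and 0.54), with limma adjusted p-values of 0.083 and 0.241.

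The other 3 calls rested on off-strain arrays. All genes were called at 1.16% in OR13067, 2.58% in IL16750 and 0.566% in AU8024, beside the single call among the 77 genes in each strain. Ndufa10, an accessory subunit of complex I, was 11.22, 11.25, 11.68 and 11.74 in vehicle mice of OR13067 and 10.87, 11.00, 11.22 and 11.23 with tolvaptan. The highest pair of vehicle values came from off-strain arrays. The difference was −0.40 ± 0.11 (SE, limma adjusted p = 0.030) with them and −0.16 (adjusted p = 0.901) without. Cox8c, a testis isoform of complex IV, was 3.26, 4.04, 4.12 and 4.20 in vehicle mice of IL16750 and 3.95, 4.43, 4.95 and 5.07 with tolvaptan. It was higher by 0.70 (limma adjusted p = 0.0497), and by 0.43 (0.666) without the off-strain arrays, which gave 3.26 and 4.12. Cox6b2 in AU8024 was 5.30, 5.38, 8.35 and 8.61 with vehicle and 3.15, 3.22, 4.37 and 5.05 with tolvaptan, where the values 8.35, 8.61 and 3.22 were off-strain. Its difference was −2.97 (limma adjusted p = 0.0025) and became −1.19 (0.202) without those arrays.

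Leaving out the off-strain arrays gave 10 calls (2030 over all genes, from 1785). In AU8033, which then had 2 vehicle and 3 tolvaptan mice, there were 6, or 7.79% of the 77, against 3.55% of all genes. In that strain Ndufs8 (−0.65), Ndufb2 (−0.59), Sdhb (−0.56) and Ndufv3 (−0.45) fell and Uqcrc2 (0.66) and Cox6b2 (1.60) rose, with limma adjusted p-values from 0.019 to 0.046; the vehicle side of each rests on 2 mice. Cox6b2 also rose in AU8043 (1.51, adjusted p = 0.017), where vehicle mice were 3.17, 3.56, 4.32 and 4.71 and tolvaptan mice 4.73, 5.61, 5.72 and 5.73, with no overlap. It fell in OR5119 (−1.53, adjusted p = 0.0043), where the 3 on-strain vehicle mice were 8.33, 8.38 and 8.56 and the tolvaptan mice 6.48, 6.68, 6.72 and 7.83.

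The next question was how far baseline levels depend on genetic background. Levels in vehicle mice differed between the 45 strains for 66 of 77 genes (85.7%; limma F test, adjusted p of 0.05), against 74.9% of all genes. The share was 95.5% of genes with a mean of at least 9 and 93.5% of those with a mean of at least 11. The strain means of the subunits spanned a narrow band, however. The range from the lowest to the highest strain mean, adjusted for scan, had a median of 0.66 for the 64 subunits and 1.06 for all genes. Called with a range of at least 1 were 14 of 77 genes (18.2%) and 7 of 64 subunits (10.9%), against 51.4% of all genes. Among bright genes the share was 51.4% of 1174 genes with a mean of at least 9 and 34.9% of 292 genes with a mean of at least 11, and their median ranges were 1.03 and 0.82.

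Between complexes, the median range was 0.54 in complex IV, 0.58 in complex V, 0.62 in complex III, 0.73 in complex I and 0.96 in complex II. The assembly factors of complex I, which guide its building and are no part of the finished enzyme, had a median range of 1.48, and 5 of 7 were called with a range of at least 1. Their probe sets were dimmer than those of most subunits, with means from 4.60 to 9.76 in vehicle mice.

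**Figure D2:**
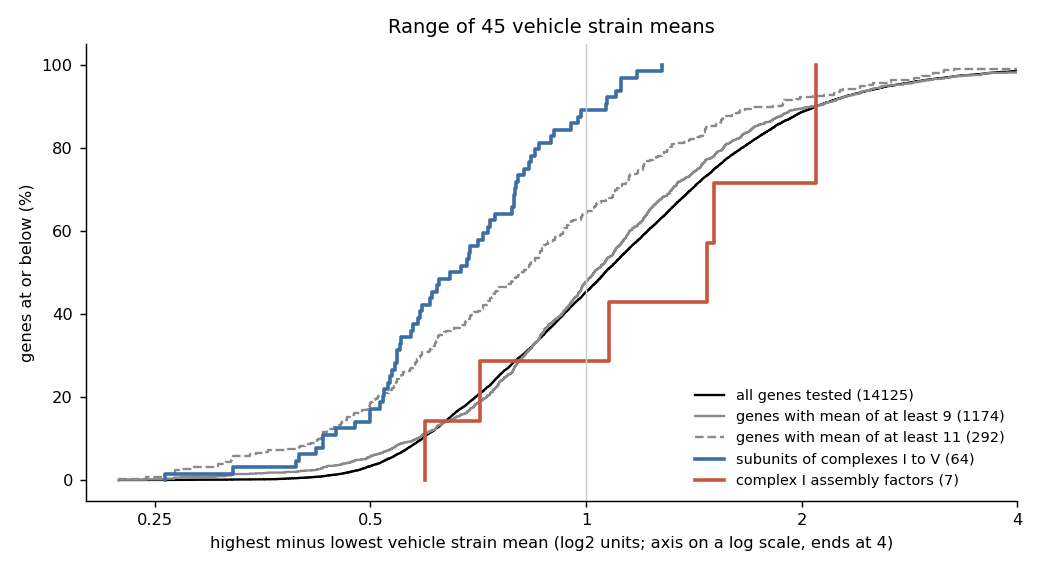
Share of genes (%, y axis) whose range of 45 vehicle strain means (log2 units, x axis on a log scale) was at or below a given value, for 64 subunits, 7 assembly factors, all genes tested and 2 sets of bright genes. The subunit curve lies left of that of all genes, with medians of 0.66 and 1.06, and the assembly factors lie to the right, with a median of 1.48.

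Among the assembly factors the widest ranges were those of Ndufaf5 and Ndufaf4, both 2.09. Ndufaf4 in vehicle mice was 5.67, 6.03, 6.28 and 6.54 in AU8049 and 7.86, 8.18, 8.18 and 8.72 in OR3609. Those strains did not overlap. Ndufaf5, which modifies a core subunit during assembly, was 3.57, 3.81, 3.81 and 3.83 in OR13140 and 4.85, 5.12, 5.17 and 5.83 in IL16680. Ndufaf6 (range 1.51) was 6.13, 6.23, 6.42 and 6.75 in OR3393 and 7.52, 7.67, 8.06 and 8.09 in IL16513, again with a gap between them. Ndufaf2 (range 1.48) was 5.48, 5.72, 5.78 and 5.91 in OR13140 and 6.78, 6.91, 7.20 and 7.63 in IL16680. In OR5119 it was 5.09, 5.19 and 5.28 in 3 mice and 6.79 in the off-strain one.

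Among the subunits the widest range was that of Sdha, 1.28. Its vehicle values were 9.19, 9.30, 9.43 and 9.57 in OR13067 and 10.54, 10.62, 10.68 and 10.74 in OR3609, with no overlap, and in AU8052 the 3 mice were 10.50, 10.69 and 10.81. A second Sdha probe set with a mean of 9.42 had a range of 1.45 over strain means of both treatments and correlated with the first at 0.68 over 45 strains. Ndufs1 (range 1.18) was 6.69, 7.52, 7.72 and 7.78 in IL16188 and 8.28, 8.58, 8.69 and 8.77 in OR3609. Ndufa5 (range 1.12) was 7.39, 7.77, 7.82 and 8.31 in AU8049 and 8.28, 8.87, 8.95 and 9.12 in OR3415, which overlap by a single mouse. Sdhd (range 1.12) was 7.78, 8.65, 9.06 and 9.80 in OR3252 and 9.75, 9.90, 10.03 and 10.14 in AU8002, and its strain differences did not pass without the off-strain arrays (limma adjusted p = 0.125).

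Cox6c, a small membrane subunit of complex IV, had the highest F ratio after Cox6b2, 9.52, and was singled out after its values were seen. Its vehicle values were 10.64, 10.70, 10.90 and 11.13 in OR13067 and 10.63, 10.70, 10.94 and 11.24 in OR13421. In AU8027 they were 11.88, 11.88, 11.97 and 11.98. The lower strains lay below every AU8027 mouse, and without off-strain arrays its range grew from 1.07 to 1.35. At the other end, Cox6a1 had a range of 0.26, from 12.71, 12.89, 12.91 and 12.95 in AU8004 to 13.06, 13.09, 13.15 and 13.19 in AU8027. A second Cox6a1 probe set with a mean of 10.0 had a range of 0.81 over strain means of both treatments, against 0.26 for the used one, and correlated with it at 0.38 over 45 strains. The call of Cox6a1 was lost in each fit that left out a replicate (limma adjusted p from 0.078 to 0.193). Atp5g3, which encodes the proton-carrying c subunit of complex V, had a range of 0.32 and did not pass (limma adjusted p = 0.209). Uqcrfs1, the Rieske iron-sulfur protein of complex III, had a range of 0.39 and passed.

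Cox6b2, whose product replaces Cox6b1 in testis, differed most between strains of all 77 genes, with a range of 5.68. In 7 strains (AU18042, AU8016, AU8021, IL16188, OR3032, OR3252 and OR5119) the mean over on-strain arrays of both treatments was 7.34 to 8.30. In the other 38 strains it was 2.97 to 5.08. The 48 on-strain arrays of the 7 strains ran from 6.48 to 8.74 and the 272 of the other strains from 2.40 to 6.20, with a median of 3.63. The bands did not overlap. The strains had been split at an on-strain mean of 6 in these same values, so the separation is in part set by that choice. Vehicle mice of OR3032 were 7.44, 8.22, 8.59 and 8.74, and those of AU8049 were 2.70, 2.98, 3.03 and 3.21. In OR3032 the tolvaptan mice were 8.09, 8.38 and 8.62, and in AU8049 they were 2.62, 2.92, 3.01 and 3.30, so both treatments kept to the strain's band.

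**Figure D3:**
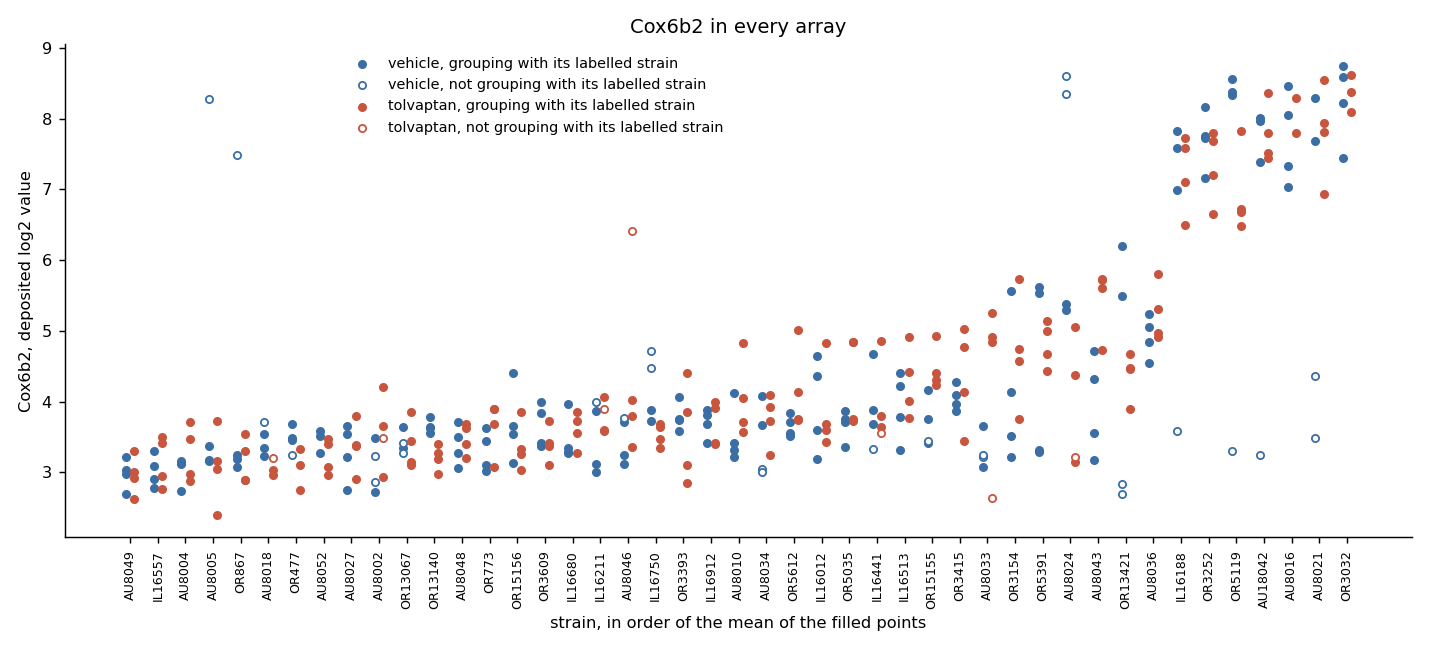
Cox6b2 in each of 354 arrays (deposited log2 value, y axis) by strain (x axis, in order of the mean of on-strain arrays); filled points group with their labelled strain and open points are the 34 off-strain arrays. On-strain arrays of the 7 strains at the right lie at 6.48 or higher, and those of the other 38 strains at 6.20 or lower.

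Some off-strain arrays left the band of their strain. All 5 in the 7 high strains were under 6, and 5 of 29 in the other strains were at or above 6. Among the latter, an AU8046 array at 6.41 lay between the bands, and an on-strain array of the low strain OR13421 also reached 6.20. Without the off-strain arrays the residual SD of Cox6b2 went from 0.82 to 0.45. Cox6b2 and Cox6c were among the 500 probe sets that marked those arrays, and a selection without any probe set of the chain marked the same 34. By estimate, Cox6b2 differed by 0.12 between treatments over all strains, with an interval from −0.055 to 0.288 and a limma adjusted p of 0.737.

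Of all genes, Kmt5c had strain means most like those of Cox6b2 (r = 0.69 over 45 strains), followed by Coprs (0.55), Hpx (0.55) and Sae1 (0.53). Kmt5c encodes a histone methyltransferase and is the immediate neighbour of Cox6b2 in the RefSeq gene order of chromosome 7. The other tested genes within 4 places, Hspbp1, Tmem150b, Il11 and Tmem238, had r from −0.17 to 0.37. These points share the arrays on which both genes were read.

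The other tissue isoforms had values of 2.39 to 4.42 on average in vehicle mice, beside array medians of 2.81 to 3.02. Cox6a2 and Cox8c exceeded the array median in all 354 arrays, Cox7a1 in 242 and Cox8b in 12. Cox7a1, the heart and skeletal muscle form that corresponds to Cox7a2, had a vehicle mean of 3.15 ± 0.58 (SD, n = 179) and a tolvaptan mean of 3.22 ± 0.57 (n = 175), and a range over strains of 1.73. Its vehicle values were 2.22, 2.28, 2.57 and 2.83 in AU8005 and 3.72, 3.81, 3.92 and 4.26 in IL16188, without overlap. In OR15155 they were 2.62, 3.77, 4.11 and 5.14, the lowest from an off-strain array. All 5 heart muscle markers on the array lay at or below the typical array median, as did 6 of 9 skeletal muscle markers. Of the 3 brown fat markers on the array, Ucp1 and Cidea did so too and 1 lay above it. Within groups Cox7a1 had r of 0.02 with the skeletal muscle markers, −0.05 with heart and 0.07 with brown fat. With the bile duct markers, of which Krt19, Krt7 and Epcam lay at or below the typical array median, r was 0.28. With the mean of the subunits it was 0.46. Cox6a2 and Cox8b, the muscle forms of other subunits, had vehicle means of 3.53 ± 0.30 and 2.39 ± 0.25 (SD, n = 179), and the testis form Cox8c 4.42 ± 0.33. Ndufa4l2 lay at 2.73 ± 0.40 and Ndufab1, which carries acyl groups as a complex I subunit, at 2.40 ± 0.35 in the same mice.

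The 5 genes left untested were Cox4i2 (vehicle mean 2.23), Cox7b2 (1.83), Cox7c (2.14), Atp5g1 (1.91) and Ndufb4 (2.25). Cox7c, Atp5g1 and Ndufb4 encode ordinary subunits, so a dim probe set gives no measure of their level here.

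The chain as a whole was described by 1 value per array, the mean over the 64 subunits of the log2 value minus the gene's own mean, with fitted scan effects removed. It was 0.0082 ± 0.092 in vehicle mice (SD, n = 179) and −0.0084 ± 0.089 in tolvaptan mice (n = 175). The mean was lower with tolvaptan in 28 of 45 strains, the mean difference was −0.017 and its SD over strains was 0.056. Vehicle and tolvaptan mice overlapped in every strain. Strain means of vehicle mice ran from −0.128 to 0.124, with an SD of 0.060, against an SD of 0.078 within groups. Before scan effects were removed, the level was 0.031 in scan 1 and 0.0035, −0.0011, −0.037, −0.042 and −0.035 in the scans that followed.

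**Figure D4:**
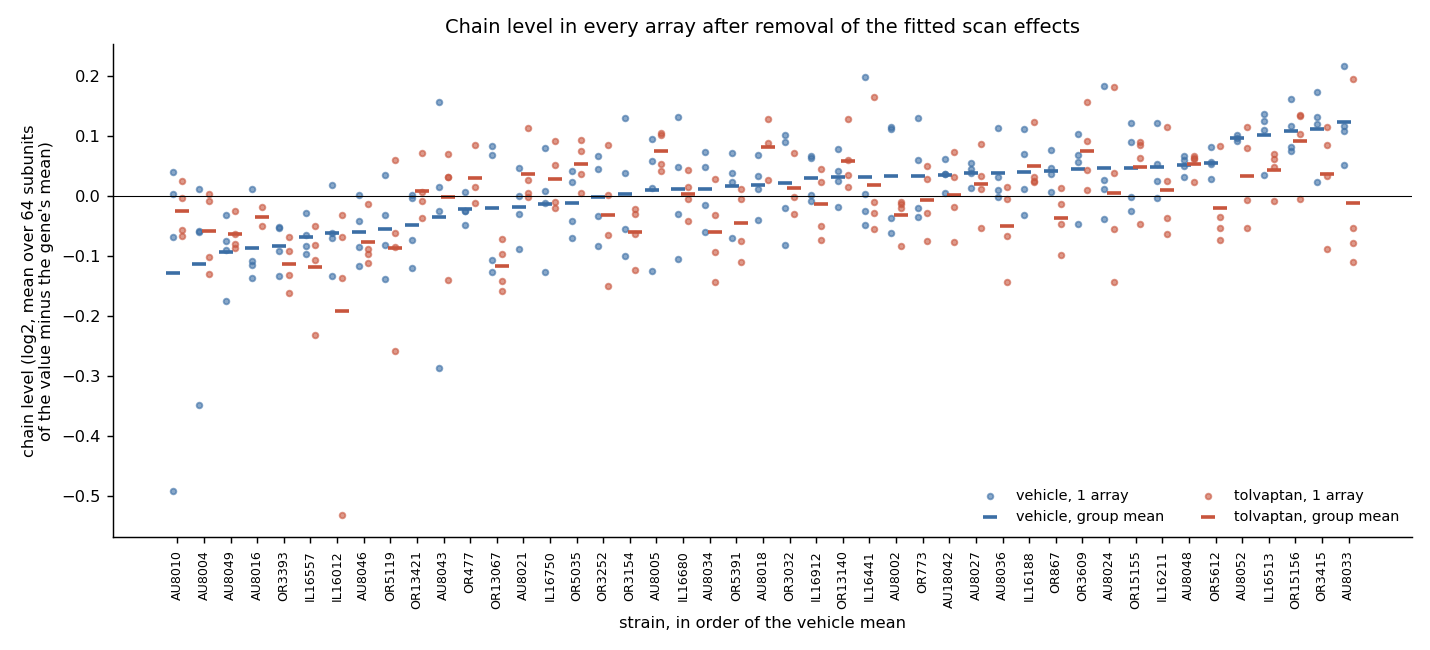
Chain level of each of 354 arrays (log2 units, mean over 64 subunits, y axis) by strain in order of the vehicle mean (x axis), with points for single mice and bars for group means. Most mice lie within 0.2 of 0, and single mice of AU8010, AU8004, AU8043 and IL16012 lie far below the rest of their groups.

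Among strains, OR15156 (vehicle mice 0.076, 0.082, 0.117 and 0.162) and OR3415 (0.024, 0.121, 0.133 and 0.174) were among the 3 highest with vehicle. The highest was AU8033, at 0.052, 0.110, 0.117 and 0.217, of which the first pair were off-strain. AU8049 (−0.174, −0.090, −0.075 and −0.031) was among the 3 lowest, with all 4 mice below every OR15156 and OR3415 mouse. The other low strains owed their place to single mice. AU8010 was at −0.490, −0.068, 0.0037 and 0.041, and AU8004 at −0.348, −0.060, −0.058 and 0.013.

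Several of the largest differences between treatments turned on few arrays. AU8010 had the largest higher estimate with tolvaptan, 0.104, which was −0.017 without its low vehicle mouse. IL16012 was lower with tolvaptan by estimate (−0.131), and the difference was −0.017 without 1 tolvaptan mouse at −0.531. In that mouse 57 of 64 subunits were below their means over all arrays, and in the low AU8010 mouse 60 of 64. In AU8033 the difference was −0.135 with its 3 off-strain arrays and −0.145 without them. The on-strain mice of AU8033 were 0.117 and 0.217 with vehicle and −0.078, −0.053 and 0.195 with tolvaptan, with overlap. In OR13067 the difference went from −0.096 to −0.0002 without its 2 off-strain arrays. AU8005 (0.065, or 0.020 without 1 off-strain array) and OR5035 (0.064) had the next largest higher estimates. In OR5035 the vehicle mice were −0.070, −0.040, 0.024 and 0.043 and the tolvaptan mice 0.0062, 0.037, 0.076 and 0.094, with overlap. Within strain and treatment, the mean over the subunits had r of 0.33 with the mean of the 2 red cell markers on the array. With the hepatocyte markers it was 0.099, and the other marker lists ran from −0.15 (heart muscle) to 0.21 (brown fat). These values describe residuals over 354 arrays, and the part of such cells in the chain level was not tested.

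Within strain and treatment, subunits varied together. Over residuals of 354 arrays the median correlation of 2 subunits was 0.21, against 0.012 for pairs of all genes and 0.049 for pairs of genes with a mean of at least 9. All pairs share arrays and their RMA normalization. The median was 0.21 within complex I, 0.25 within complex III, 0.27 within complex IV and 0.19 within complex V. It was 0.21 between complex I and the other complexes as well. Within complex II it was −0.017. Ndufb9 (r = 0.72 with the mean of the other subunits), Ndufb10 (0.69), Cox6b1 (0.65) and Ndufb5 (0.63) followed the chain most closely. Assembly factors correlated with subunits at a median of 0.15. The lowest among the subunits were the dim Ndufab1 (−0.089), Sdha (0.043) and Ndufs1 (0.053).

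Sdha and Ndufs1 followed each other instead, with r of 0.75 within groups and 0.75 over vehicle strain means of on-strain arrays. Alongside were Uqcrc2 (r = 0.67 with Sdha), Ndufa1 (0.59), the ATP synthase stalk subunits Atp5pb (0.57) and Atp5j (0.55), and Ndufs4 (0.42). On the opposite side lay Cox4i1 (−0.57), Ndufa11 (−0.51) and Uqcrc1 (−0.45), so the core proteins Uqcrc1 and Uqcrc2 of complex III fell on different sides. Of the other 63 subunits, 10 (15.9%) had r with Sdha above 0.3 and 10 (15.9%) below −0.3. Over all genes the shares were 15.6% and 12.3%, so likeness to Sdha was about as common outside the chain as within it. Over strain means, Atp5pb (0.69) and Cox4i1 (−0.62) kept their signs. The relation of Sdha to Ndufs1 was 0.71 within scan 1 and 0.77 in the later scans, and that to Cox4i1 −0.60 and −0.56.

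**Figure D5:**
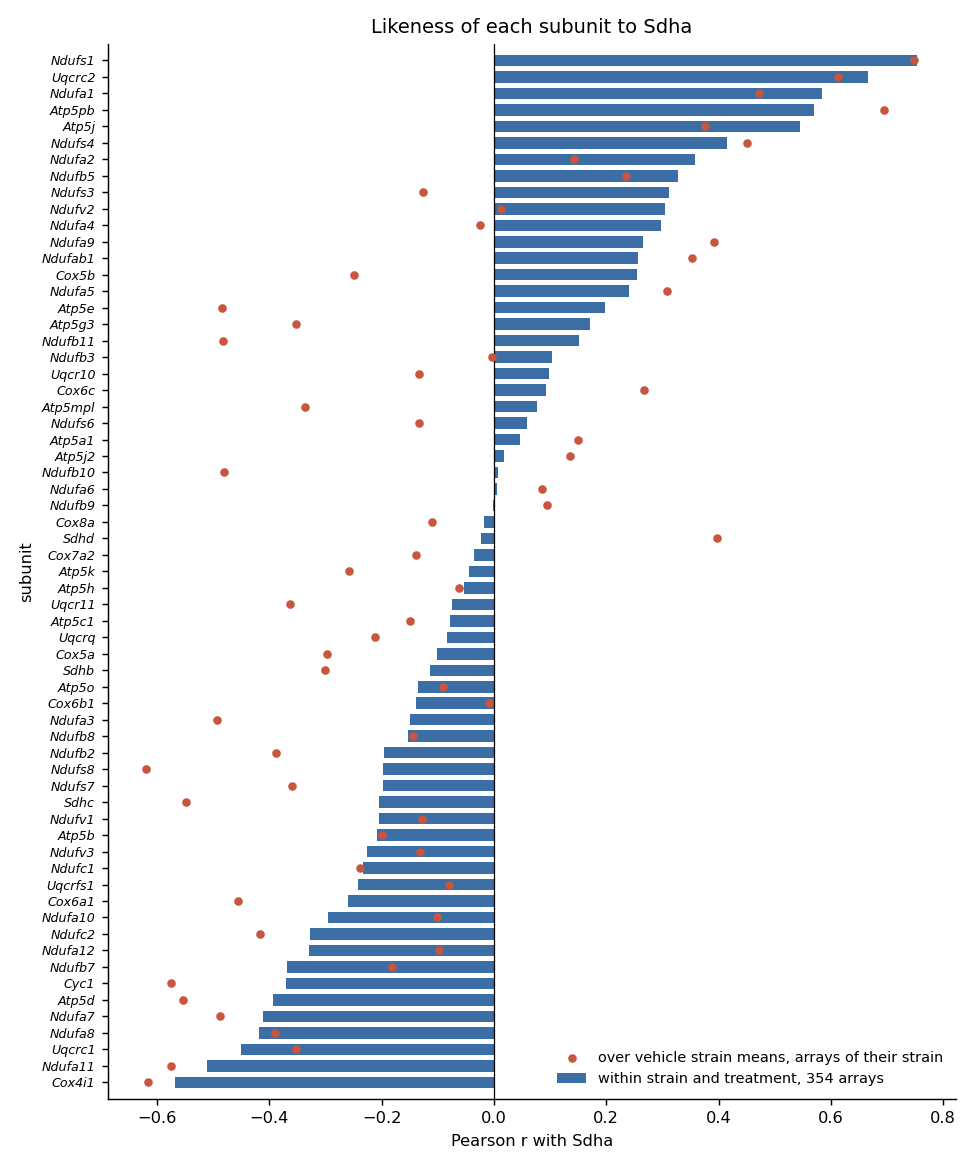
Pearson r with Sdha (x axis) of each of the other 63 subunits (y axis), within strain and treatment over 354 arrays (bars) and over vehicle strain means of on-strain arrays (points). Ndufs1, Uqcrc2 and Atp5pb are positive and Cox4i1, Ndufa11 and Uqcrc1 negative on both measures, while many subunits between them differ in sign.

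In vehicle mice OR15155 and OR3609 lay near opposite ends for Sdha and Ndufs1, the genes by which these strains were picked. OR15155 was low for Sdha (9.16, 9.31, 9.55 and 9.75) and Ndufs1 (7.09, 7.29, 7.65 and 8.00) and high for Cox4i1 (12.48, 12.58, 12.59 and 12.70). OR3609 was high for Sdha and Ndufs1, as given above, and for Uqcrc2 (10.53, 10.54, 10.73 and 10.73). The strains lowest for Cox4i1 were AU8049, AU8036, AU8016 and OR3393, and OR3609 was not among them. The leading value of each OR15155 series came from the same off-strain array. The genes outside the chain most like Sdha within groups were Acadsb (0.80), Pcnp (0.77) and Mmut (0.77), of which Acadsb and Mmut encode mitochondrial enzymes of branched-chain amino acid breakdown. The most opposite was Cdipt (−0.63). A spread measure of array quality, the interquartile range of each array's deviations from gene medians, had r of −0.28 with Sdha, −0.29 with Ndufs1 and 0.057 with Cox4i1, and its part was not tested.

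For 34 of the 82 genes the arrays carried more than 1 probe set. Of the 47 probe sets not used, 32 had a mean of at least 6, and over 45 strain means these correlated with the used one at a median of 0.75 (−0.47 to 0.96). The lowest was a second probe set of Uqcr10, a small subunit of complex III. It split the strains, with means of 3.51 to 5.89 in 21 and 7.70 to 9.12 in 24, while the used probe set stayed between 10.0 and 10.6 in all 45.

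Genes around the chain were counted from 4 lists. None of their members passed the averaged test in either direction: 0 of 15 of the citric acid cycle and pyruvate dehydrogenase, 0 of 29 assembly factors outside the symbol rule, 0 of 16 regulators of mitochondrial biogenesis and 0 of 12 electron carriers and inner membrane carriers. Their median differences were −0.018, −0.003, −0.003 and −0.004. Cycs, cytochrome c, which carries electrons from complex III to complex IV, came closest, at −0.126 ± 0.035 (SE, limma adjusted p = 0.054) and lower in 32 of 45 strains. Its vehicle values ran from 8.71 to 11.1 (median 10.2) and its tolvaptan values from 8.15 to 11.2 (median 10.1). Atpif1, which inhibits ATP hydrolysis by complex V, was higher by estimate (0.116, limma adjusted p = 0.109), and Ttc19, a complex III assembly factor, lower (−0.122, 0.109). In the citric acid cycle, Idh3g was at −0.052 and Pdha1 at 0.080, and among regulators Polrmt was at −0.054 and Esrra at −0.065.

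Strain differences in vehicle mice with a range of at least 1 were called for 6 of the 15 citric acid cycle genes (40.0%). They were called for 19 of the 29 outside assembly factors (65.5%), 13 of the 16 regulators (81.3%) and 9 of the 12 carriers (75%), beside 51.4% of all genes. The outside assembly factors had a median range of 1.37, close to the 1.48 of those within the symbol rule.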

How the data were processed

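Male mouse liver was hybridised to Affymetrix HT_MG-430 PM arrays. Per the submitters' processing notes, the authors used Affymetrix Expression Console and RMA, without stated versions, and they deposited log2 values, which were used unchanged. Of 42597 probe sets, 27691 had 1 gene symbol in the platform annotation, 493 several and 14376 none (37 were controls). The fit (limma 3.58.1 in R 4.3.3) had 1 mean per strain and treatment and a scan term, 259 residual degrees of freedom and 1 spread shared by all groups. It gave the averaged difference over 45 strains, each strain's difference, an F test of equal differences and an F test of equal vehicle means, all two-sided, with Benjamini-Hochberg adjustment over 14125 genes (within each strain for single strains) and a threshold of 0.05. Calls with a range of at least 1 were counted apart. Correlations used residuals of that fit or strain means, computed with pandas 2.3.3 and numpy 2.4.6, and are descriptions.

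The genes, lists and markers were chosen with earlier results of these data known. Named genes were the 8 of lowest p for the averaged effect, the lowest in each complex, the 10 widest and 3 narrowest called or tested strain ranges, the 4 lowest interaction p-values, the largest changes in the 4 strains with calls, the tissue isoforms, and Sdha, Ndufs1, Uqcrc2, Cox4i1 and Atp5b; Cox7a2l was not analysed here. Replicates were numbered in accession order and pair no animals. The number of arrays limits precision. Alternatives were no scan term, no filter on dim genes, the mean of all probe sets, array centring, an intensity trend with robust variance, array quality weights, strains as the unit, scan 1 alone, and fits without scan 1, scan 2, off-strain arrays or each replicate. A fit on the 26 strains with no off-strain array was chosen after seeing the data. The fit was tested on simulated data. No 2 arrays held identical values.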

Additional observations from a re-analysis of the deposited data

Results flagged for a closer look

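Of 30 groups of 4 mice checked, 1 had a mouse far from the others. In vehicle mice of IL16750 the Cox8c value of 1 animal was 3.26, with the nearest mouse at 4.04 and the highest at 4.20, so the gap took 0.838 of the group's range. It is an off-strain array, and chance marks about 1 in 20 such groups.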

How the results depend on the processing

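The 0 of 77 genes passing the averaged test (70 of all genes) became 5 without scan 1 (158 of all), 5 without replicate 4 (162; 0 to 5 over the 4 fits that leave out a replicate), 3 with array quality weights (434) and 1 on the 26 strains with no off-strain array (300; Atp5k). It stayed 0 in the other alternatives. Replicate 4 was, as a rule, the scan 1 mouse of its group. The fits without scan 1 and without replicate 4 thus left out nearly the same arrays. Interaction calls became 10 with array quality weights (3322 of all genes) and 1, Cox6b2, without off-strain arrays (26 of all genes). Without scan 2 most strains of that scan kept 1 mouse per treatment, so interaction and single-strain calls of that fit are not counted here. Calls in single strains, 5 in the report (1785 over all genes), were 2 without the scan term (1328), 2 without the filter (1733), 3 with the mean of all probe sets (1729), 10 without off-strain arrays (2030), 9 without scan 1 (2137), 25 without scan 2 (7591), 26 with array quality weights (6633) and 1 to 10 without a replicate (882 to 3314). The median difference turned to 0.0029 without scan 2 and 0.0117 in scan 1 alone. The cause was not tested. The vehicle strain calls stayed between 54 and 74. No paired analysis was possible because each animal has a number of its own and no number is shared between groups.

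In scan 1 alone the averaged differences of 8 of 15 named genes changed sign: Atp5k 0.022, Ndufs8 0.014, Ndufa3 0.0042, Ndufb9 0.0038, Sdhb 0.014, Uqcr11 0.012, Ndufs1 −0.020 and Uqcrc2 −0.019. Uqcrc2 also turned to −0.0001 with centred arrays and −0.012 with array quality weights. Without a replicate, Uqcrc2 ran from −0.026 (replicate 3) to 0.015 and Ndufs1 from −0.014 (replicate 1) to 0.076. Of the alternative values for the 5 calls in single strains, 38 kept the call, 28 missed the threshold and Ndufa10 in OR13067 turned to 0.017 without scan 2. The Ndufs1 range did not pass on the 26 strains (0.75, limma adjusted p = 0.624). Signal over background limits Ndufab1, Cox8b and the 5 untested genes.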
